A study of Mus musculus with 4 samples.

Results

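The enzymes that write, copy and remove methyl groups on cytosine in mouse DNA are encoded by 9 genes, whose ribosome footprints were compared here between stem cells and embryoid bodies: Dnmt1, Dnmt3a, Dnmt3b, Dnmt3l, Uhrf1, Tet1, Tet2, Tet3 and Tdg. They were chosen by gene symbol, and the RefSeq coding sequence entries of each symbol were summed, which gave 9 of the 20716 genes in the table. Ribosome profiling sequences the mRNA stretches that translating ribosomes shield from nuclease, so a gene's count follows both its mRNA level and how densely ribosomes sit on it. Of the 9 genes, 6 had no read in any library, 1 (Tdg) had at most 5 reads, and 2 (Tet2 and Tet3) passed the filter of a mean normalised count of at least 25, as did 9670 genes in all. Tet2 was 2.42-fold lower in Mettl3 knockout embryoid bodies and 4.42-fold lower in wild-type embryoid bodies than in the stem cells of the same genotype. Tet3 was 2.11-fold higher in knockout than in wild-type stem cells.

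Each of the 4 groups was 1 library on a C57BL/6 background: Mettl3 knockout (KO) embryoid bodies (EBs), wild-type (WT) EBs, KO embryonic stem cells (ESCs) and WT ESCs. Mettl3 is the catalytic subunit of the enzyme that places N6-methyladenosine on mRNA, and the study's title concerns this mark in the exit from naive pluripotency. ESCs were held in the naive state in serum-free medium with LIF and with inhibitors of GSK3 (CHIR99021) and MEK (PD0325901). EBs, suspended aggregates in which such cells differentiate, grew without these additions in medium with fetal bovine serum for 8 to 21 days, and the sources used here give neither the day of each EB library, nor the clone of each line, nor the altered part of Mettl3. With 1 library per group no difference between groups had a replicate check, and genotype cannot be told apart from cell line or library. Mettl3 itself had normalised counts of 327 in KO EBs, 429 in WT EBs, 298 in KO ESCs and 563 in WT ESCs, and counts summed over its coding sequence do not check a small deletion.

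In mammals Dnmt1 copies methylation onto the new strand after replication, guided by Uhrf1, which binds hemimethylated CpG sites. Dnmt3a and Dnmt3b methylate unmodified sites, and Dnmt3l, which has no catalytic activity of its own, assists them. Tet1, Tet2 and Tet3 oxidise 5-methylcytosine, and the glycosylase Tdg cuts out the more oxidised forms, which base excision repair then replaces with cytosine. Naive ESCs under GSK3 and MEK inhibition are known for low DNA methylation, which rises when they are released to differentiate.

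Most of these genes could not be counted in this table. A read that overlaps more than 1 entry is held as ambiguous and assigned to none, and 7 of the 9 genes had several entries that cover nearly the same bases. Dnmt1 had 4 entries, Dnmt3a 3, Dnmt3l 6 and Uhrf1 4, and in each of these genes 0 coding bases belonged to a single entry. The 9 entries of Dnmt3b left 3 bases of a coding sequence of 2583. Tet1 had 2 entries with a coding sequence of up to 6120 bases and 99 bases held by only 1 of them, and Tdg had 2 entries and 72 such bases. Tet2 and Tet3 had 1 entry each, and all of their 5739 and 5007 coding bases were open to counting.

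**Figure D1:**
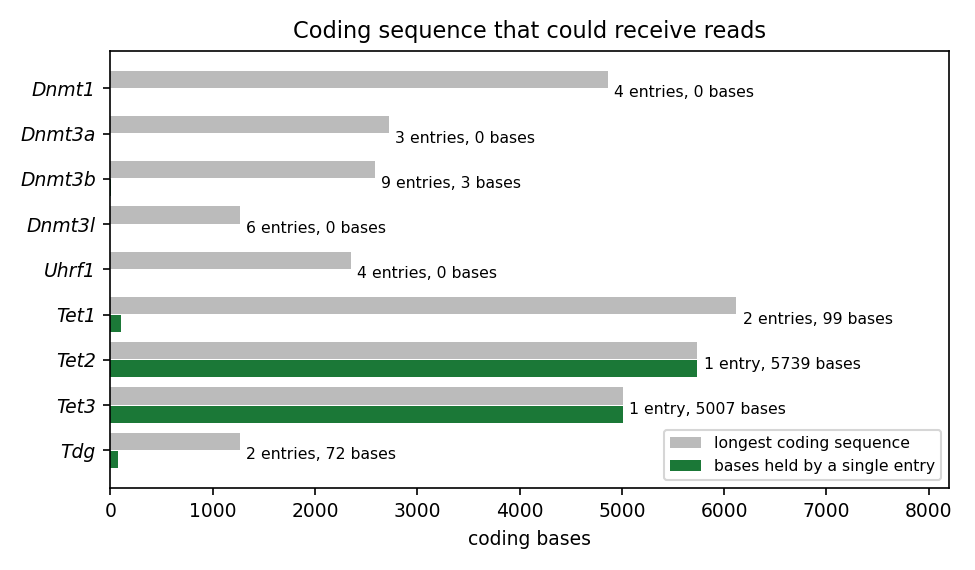
Coding bases of each gene (x axis, bases), with grey bars for the longest coding sequence and green bars for the bases that a single entry of the table covers. Tet2 and Tet3 are the genes whose green bar reaches the grey one, and the other 7 genes have between 0 and 99 such bases.

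The zeros of Dnmt1, Dnmt3a, Dnmt3b, Dnmt3l and Uhrf1 therefore say nothing about their translation. The zeros of Tet1 cover 99 bases of its coding sequence and leave the rest unmeasured. Countable bases were computed from the annotation at hand, which need not be the version the authors used. Across the table, 6667 of the 6678 entries with no base of their own had no read in any library. Among entries with at least 1000 bases of their own, 8625 of 9609, or 89.8%, had reads. Ambiguous reads, which would hold the footprints on the shared stretches, made up 8.62% of all reads in KO EBs, 9.74% in WT EBs, 10.5% in KO ESCs and 8.71% in WT ESCs, and the table does not say which genes they lay on.

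The stretches below are the only runs of 12 bases or more that a single entry covers in the 7 genes with several entries. They are given in the RefSeq sequence of GRCm38.p6, read 5′ to 3′ along the coding strand. Capitals mark the Tdg start codon.
Tdg, chr10:82630016-82630038, plus strand, first coding exon: ATGgacgcagaggccgcgcgcag
Tdg, chr10:82638701-82638749, plus strand: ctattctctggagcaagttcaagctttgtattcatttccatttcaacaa
Tet1, chr10:62818939-62819034, minus strand: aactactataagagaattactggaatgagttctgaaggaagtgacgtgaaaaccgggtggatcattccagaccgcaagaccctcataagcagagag

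Tdg had 3 reads in KO EBs, 1 in WT EBs, 2 in KO ESCs and 5 in WT ESCs, or normalised counts of 4.48, 1.56, 1.07 and 3.89 in that order. These lay near the floor of 3 reads, which corresponds to 4.48 in KO EBs, 4.68 in WT EBs, 1.60 in KO ESCs and 2.34 in WT ESCs, and no fold was taken. The 49-base stretch of Tdg is also present elsewhere in the genome in all of its 22 windows of 28 bases, about the length of a footprint, and reads without a unique place were left out of the counts. Over the longest coding sequence 94.8% of windows had such a copy in Tdg, 48.8% in Uhrf1 and 25.3% in Dnmt3b. The Tet1 stretch of 96 bases had no copied window (0 of 69) and 0 reads in every library, which allows up to 3 reads per library on an exon that 1 of its 2 entries carries. Of the table's entries with 1 to 99 bases of their own, 18.8% had a read.

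Tet2 (NM_001040400; chromosome 3, 133463677 to 133545136 in GRCm38) was the dioxygenase with most footprints among those that could be counted. It had a normalised count of 1245 in KO EBs, 765 in WT EBs, 3016 in KO ESCs and 3380 in WT ESCs, from 834, 491, 5654 and 4342 reads. Both EB libraries lay below both ESC libraries, and within EBs the KO library was the higher one. In such bulk samples fewer cells of a type and less RNA per cell cannot be told apart. In KO EBs Tet2 was 2.42-fold lower than in KO ESCs (95% counting interval 2.25 to 2.61; log2 fold −1.28). In WT EBs it was 4.42-fold lower than in WT ESCs (4.02 to 4.86; −2.14). Intervals are exact binomial intervals of the ratio of reads in 2 libraries and cover counting error only, and log2 folds are of the normalised count + 1.

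Footprints at least 2-fold lower were found for 6.65% of the 9670 genes in KO EBs against KO ESCs and for 8.25% in WT EBs against WT ESCs. Of the 2 enzymes compared, 1 passed this limit in each genotype. The share of all genes at 2-fold or more above ESCs was 9.31% in KO EBs and 11.0% in WT EBs, and 0 of the 2 enzymes were among them. Tet2 stood low in both distributions, with 346 genes below its fold in KO cells and 242 below it in WT cells. In an additive fit over all 4 libraries by edgeR's quasi-likelihood test, with genotype as a block and 1 residual degree of freedom, Tet2 had a log2 fold of −1.68 for EBs against ESCs and an adjusted p of 0.105. That fit called 20 genes higher and 5 lower in EBs at a false discovery rate of 0.05, 0.207% and 0.0517% of those tested. DESeq2 on the same reads gave −1.68 with an adjusted p of 0.000377.

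Between genotypes Tet2 stayed within 2-fold. In KO EBs it was 1.63-fold higher than in WT EBs (1.45 to 1.82), in a comparison where 15.2% of genes passed 2-fold upward and 12.2% downward, with 0 of the 2 enzymes among them. In KO ESCs it was 1.12-fold lower than in WT ESCs (1.08 to 1.17), where the shares past 2-fold were 10.6% upward and 4.42% downward. The difference between the EB changes of Tet2 in KO and in WT was 0.87 on the log2 scale (counting interval 0.70 to 1.04), under the limit of 1 that 11.4% of genes passed in that direction. The edgeR fit gave Tet2 a log2 fold of 0.29 for KO against WT, with an adjusted p of 0.685.

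**Figure D2:**
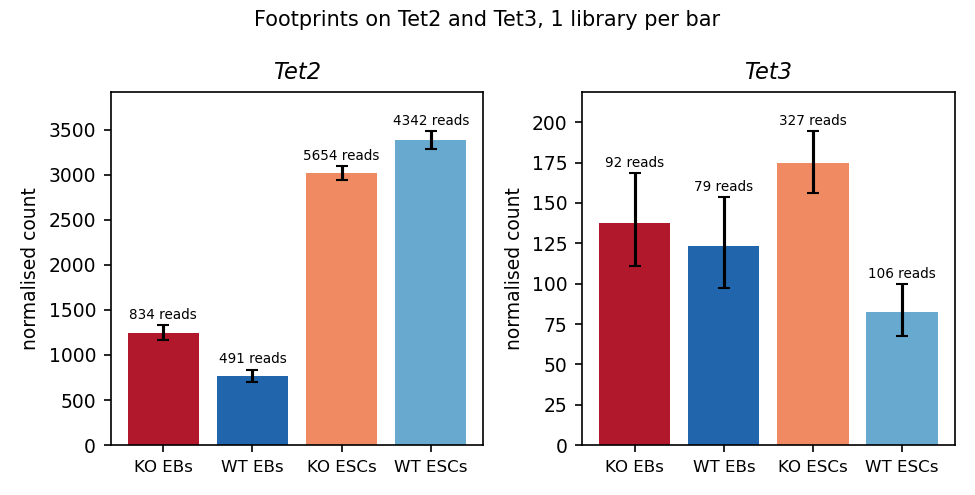
Normalised counts (y axis) of Tet2 and Tet3 in KO EBs, WT EBs, KO ESCs and WT ESCs, 1 library per bar, with error bars for the exact 95% Poisson interval of the reads. Tet2 is lower in both EB libraries, at 1245 and 765, than in the ESC libraries, at 3016 and 3380, and Tet3 is lowest in WT ESCs, at 82.5.

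Tet3 (NM_183138; chromosome 6, 83362373 to 83457208) was far less covered. Its normalised count was 137 in KO EBs, 123 in WT EBs, 174 in KO ESCs and 82.5 in WT ESCs, from 92, 79, 327 and 106 reads. The KO ESC library was the highest and the WT ESC library the lowest, with both EB libraries between them. In order of level, the counting intervals of KO ESCs (156 to 194) and KO EBs (111 to 168) overlapped, as did those of KO EBs and WT EBs (97.5 to 153) and those of WT EBs and WT ESCs (67.5 to 99.8).

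In KO ESCs Tet3 was 2.11-fold higher than in WT ESCs (1.69 to 2.66; log2 fold 1.07), so that 1 of the 2 enzymes compared passed 2-fold upward and 0 downward, against 10.6% and 4.42% of all genes. Its log2 fold was 0.996 with a pseudocount of 10 in place of 1, just under the limit of 2-fold. In EBs the genotypes were close, 1.12-fold higher in KO (0.817 to 1.53). In KO EBs Tet3 was 1.27-fold lower than in KO ESCs (1.01 to 1.62), and in WT EBs 1.49-fold higher than in WT ESCs (1.10 to 2.02). The difference between these EB changes, KO minus WT, was −0.91 (counting interval −1.46 to −0.39), and 12.5% of genes had a difference of −1 or lower. Opposite signs of the EB change in the 2 genotypes, as in Tet3, occurred in 42.2% of genes. In the additive edgeR fit Tet3 had an adjusted p of 0.510 for KO against WT and 0.957 for EBs against ESCs. For genotype the fit called 0 genes, although 1556 genes reached an unadjusted p below 0.05. DESeq2 placed 251 genes higher and 71 genes lower in KO, with neither Tet2 nor Tet3 among them.

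**Figure D3:**
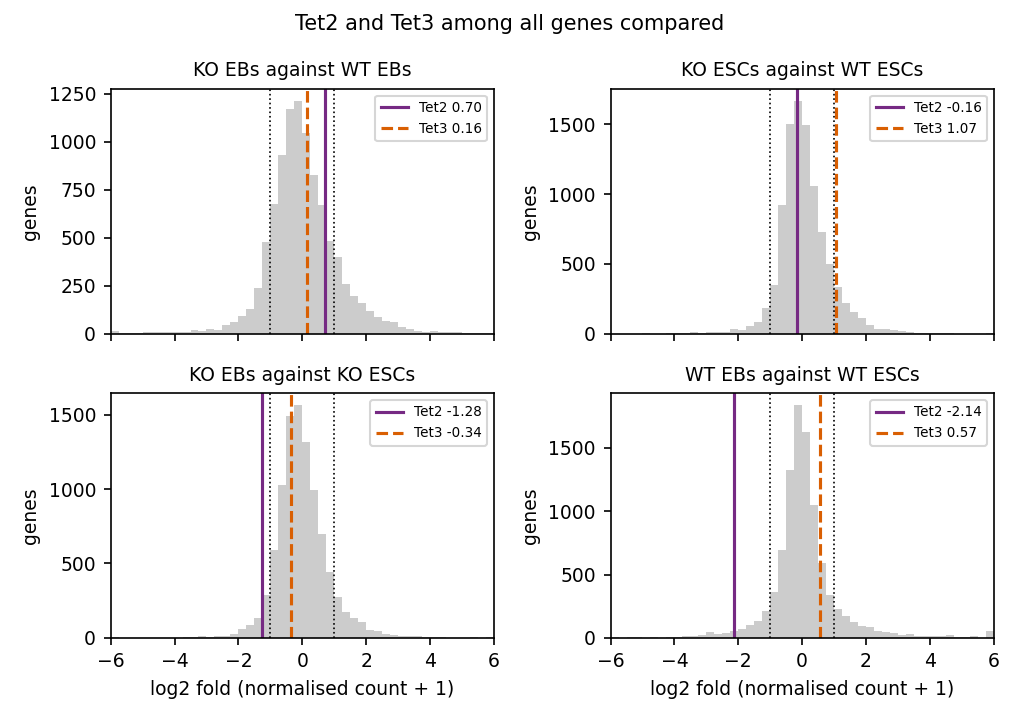
Distribution of the log2 fold (x axis) over the 9670 genes compared (y axis, genes per bin of 0.25, with values beyond the axis in the end bins), with Tet2 as a solid and Tet3 as a dashed line and dotted lines at 2-fold. Tet2 lies at −1.28 and −2.14 in the EB comparisons, and Tet3 at 1.07 in KO ESCs against WT ESCs.

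The coding sequences of these paralogs share no stretch as long as a footprint. The longest run of bases that the coding sequences of Tet2 and Tet3 share is 13 bases, shorter than a footprint, and is shown as the closest match between them, from position 133485995 to 133486007 of chromosome 3 in Tet2 and from 83403269 to 83403281 of chromosome 6 in Tet3, minus strand in both.
Tet2 and Tet3, shared run: cctcagaaggaca

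The longest run shared by Tet1 and Tet2 was 14 bases and that by Tet1 and Tet3 was 17 bases. Windows of 28 bases with a copy elsewhere in the genome made up 0.473% of the Tet2 and 0.522% of the Tet3 coding sequence. Per coding kilobase, the scale on which genes can be compared, Tet2 had a normalised count of 217 in KO EBs, 133 in WT EBs, 526 in KO ESCs and 589 in WT ESCs. Tet3 had 27.4, 24.6, 34.8 and 16.5 per kilobase in the same libraries. Ranks were taken among the 9018 genes past the filter that had 1 unshared entry, so genes with lower counts are not in them. Tet2 stood above 47.8% of these in KO EBs, 34.7% in WT EBs, 69.5% in KO ESCs and 72.6% in WT ESCs. Tet3 stood above 7.00% to 11.6% of them.

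The balance of both dioxygenases differed between the libraries. Per kilobase Tet2 exceeded Tet3 7.91-fold in KO EBs (6.37 to 9.92), 5.42-fold in WT EBs (4.27 to 6.97), 15.1-fold in KO ESCs (13.5 to 16.9) and 35.7-fold in WT ESCs (29.5 to 43.8). As a share of the pair, Tet3 made up 9.94% of reads in KO EBs, 13.9% in WT EBs, 5.47% in KO ESCs and 2.38% in WT ESCs. The counting intervals of the ratio overlapped between KO EBs and WT EBs and not between KO ESCs and WT ESCs. Tet1, which had almost no countable bases, could not be placed in this balance.

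The motif GGACT, a sequence in which N6-methyladenosine is often placed, occurs on the coding strand 3 times in the coding sequence of Tet2 and 4 times in that of Tet3, or 0.523 and 0.799 per kilobase. The median over 20429 genes was 1.05 per kilobase, and 73.2% of genes held the motif at least once. Among the 9 enzymes the density was highest in Uhrf1, at 1.70 per kilobase, and lowest in Tet1, at 0.490. A match describes the sequence and does not show that a site is methylated.

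By Euclidean distance over the 4 libraries, on log2 values centred for each gene and among 7481 genes with a mean of at least 100, the patterns nearest to Tet2 were those of Niban1 (distance 0.043), the fatty acid desaturase gene Scd2 (0.269) and the ubiquitin ligase gene Siah2 (0.273). Niban1 had 763 in KO EBs, 474 in WT EBs, 1794 in KO ESCs and 2060 in WT ESCs. Nearest to Tet3 were the kinase gene Prkcd (0.083), Sertad3 (0.108) and Lsm11 (0.110), and Prkcd had 579, 558, 749 and 370.5 in that order. A pattern over 4 libraries is a description with few degrees of freedom.

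The libraries also differed in cell type markers, whose part in the differences of Tet2 and Tet3 was not tested. Summed over 12 naive markers, the normalised count was 25665 in KO EBs, 16123 in WT EBs, 22664 in KO ESCs and 33607 in WT ESCs, with Tbx3 at 0 throughout and Esrrb with 52 countable bases. Over 12 visceral endoderm markers the sum was 1754 in KO EBs, 46779 in WT EBs, 248 in KO ESCs and 205 in WT ESCs, with Dab2 at 0 throughout. Over 10 fibroblast and matrix markers it was 11059, 2991, 4560 and 2053 in that order, with Fn1 and Lox at 0 throughout. Over 8 trophoblast markers it was 3921, 5439, 1126 and 337, with Elf5 at 0 throughout. Most of the EB sums lay on Krt18 (2005 in KO EBs and 3597 in WT EBs) and Krt8 (800 and 1334). Of the 5 trophoblast markers past the filter, 3 were higher in KO EBs than in WT EBs and 2 lower, with a median log2 fold of 0.39. Over 13 markers of dividing cells, in which maintenance methylation takes place, it was 34390, 46265, 41577 and 59493. Over 5 neural markers it was 1293, 703, 1899 and 1835, with Pax6 and Map2 at 0 throughout. Most of these sums lay on Tubb3, at 1133 in KO EBs and 553 in WT EBs. Nes had 157 in KO EBs and 123 in WT EBs, and Sox1 went the other way, at 2.99 and 26.5. Of the markers at 0 throughout, Lox, Elf5 and Pax6 had 0 countable bases, Tbx3 had 60 and Map2 had 93. Their zeros therefore say little or nothing about translation. Dab2 and Fn1 were at 0 with 654 and 273 countable bases, computed from an annotation that need not be the authors' version. Both ESC libraries carried naive markers at high levels, and both EB libraries still carried many of them.

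Partners and regulators of the enzymes were listed by 24 symbols, of which 23 were in the table. Of these, 5 were at 0 in all libraries with under 100 countable bases each (Ehmt1, Ehmt2, Nsd2, Setdb1 and Zfp57), and 17 passed the filter. In KO EBs against WT EBs 15 of the 17 were below 0 and the median log2 fold was −0.59, against −0.07 for all genes. Most stayed within 2-fold: 3 of the 17 passed it downward and 1 upward, beside 12.2% and 15.2% of all genes, so the count downward is little above the background. Markers of dividing cells, a list that also holds Pcna, had 10 of 13 genes below 0 and a median log2 fold of −0.35 in the same comparison, and their part in these values was not tested. Hells, a chromatin remodeller needed for normal DNA methylation, stood at 1440 in KO EBs and 3635 in WT EBs, 2.52-fold lower (2.34 to 2.72). Dppa3, which keeps Uhrf1 off chromatin, was 3.17-fold lower (2.49 to 4.07), with 65.7% of its windows copied elsewhere. The other gene past 2-fold lower, named after its values were seen, was Pcna, the replication clamp that recruits Dnmt1, at 355 in KO EBs and 743 in WT EBs, with 78.0% copied. Higher was Cxxc5, a CXXC-domain protein, 2.20-fold (1.94 to 2.50).

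In KO ESCs against WT ESCs 13 of these 17 genes were below 0, with a median log2 fold of −0.36 against −0.0044 for all genes, and the markers of dividing cells had 12 of 13 below 0 and a median of −0.57. The 1 gene of the 17 past 2-fold downward, near the share of 4.42% of all genes, was Dppa3, 3.37-fold lower (2.78 to 4.10). Scaling by equal totals of gene reads shifted the median log2 fold over all genes, by 0.118 in KO EBs against WT EBs and by 0.127 in KO ESCs against WT ESCs. In EBs against ESCs the gene Prdm14, which represses Dnmt3b in naive cells, was lower in both genotypes, 2.05-fold in KO (718 in KO EBs and 1469 in KO ESCs; 1.86 to 2.26) and 3.43-fold in WT (544 in WT EBs and 1868 in WT ESCs; 3.07 to 3.85). The histone methyltransferase gene Setd2, whose H3K36 mark is bound by Dnmt3b, was 2.44-fold lower in KO EBs than in KO ESCs (2.20 to 2.70). Its log2 fold was −0.15 in WT EBs against WT ESCs. In EBs against ESCs 2 of the 17 genes passed 2-fold downward in KO and 1 in WT, with 0 upward in either. The shares of all genes downward were 6.65% in KO and 8.25% in WT.

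Of 8 readers of methylated DNA 7 passed the filter, with Zbtb33 at 0 in all libraries, and they had a median log2 fold of 0.04 in KO EBs against WT EBs and 0.16 in KO ESCs against WT ESCs. In KO EBs against WT EBs 1 of the 7 passed 2-fold upward and 0 downward, beside 15.2% and 12.2% of all genes. In KO EBs against KO ESCs 1 passed upward and 1 downward, beside 9.31% and 6.65%. The gene downward was Zbtb38, a zinc finger reader, 2.13-fold lower (1.81 to 2.53).

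Genes of base excision and cytosine removal downstream of Tet and Tdg had a median log2 fold of 0.23 over the 14 of 18 that passed the filter, in KO EBs against WT EBs, with 1 past 2-fold downward and 0 upward, no more than the 12.2% and 15.2% of all genes. That gene was Polb, the polymerase that fills the gap, at 161 in KO EBs and 411 in WT EBs, 2.55-fold lower (2.03 to 3.22). In KO ESCs against WT ESCs the median was 0.03, with 1 of the 14 past 2-fold upward and 0 downward, beside 10.6% and 4.42% of all genes. That gene was Gadd45g, a stress-induced gene that has been linked to demethylation. It stood at 93.4 in KO ESCs and 17.1 in WT ESCs, 5.45-fold higher (3.49 to 8.92). In EBs against ESCs 2 of the 14 passed 2-fold upward in each genotype and 0 downward. The shares of all genes upward were 9.31% in KO and 11.0% in WT. The glycosylase gene Neil2 was higher in both genotypes, 2.61-fold in KO (2.06 to 3.31) and 2.44-fold in WT (1.81 to 3.31). Gadd45a was 3.54-fold above KO ESCs in KO EBs (3.18 to 3.94), and Gadd45g was 6.10-fold above WT ESCs in WT EBs (3.72 to 10.4).

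For the supply of the methyl donor S-adenosylmethionine, 11 of 17 genes passed the filter. Their median log2 fold was −0.18 in KO EBs against WT EBs and also −0.18 in KO ESCs against WT ESCs. In KO EBs against WT EBs 1 passed 2-fold downward, Mtr, and 1 upward, Nnmt, no more than the shares of 12.2% and 15.2% of all genes. Methionine synthase, Mtr, stood at 482 in KO EBs and 1471 in WT EBs, 3.05-fold lower (2.69 to 3.47), and its fold below KO ESCs was 2.60 in KO EBs (2.31 to 2.93). Nnmt, which uses up the donor on nicotinamide, had 59.7 in KO EBs, 6.23 in WT EBs, 265 in KO ESCs and 187 in WT ESCs. In KO EBs it was 9.58-fold higher than in WT EBs (3.46 to 36.9). It was 30.0-fold lower in WT EBs than in WT ESCs (11.6 to 111), from 4 reads in WT EBs. In KO EBs it was 4.44-fold below KO ESCs (3.21 to 6.29). The glycine methyltransferase gene Gnmt was higher in EBs, 5.96-fold in KO (3.56 to 10.3) and 5.06-fold in WT (2.83 to 9.47). In EBs against ESCs 1 of the 11 passed 2-fold upward and 2 downward in KO, beside 9.31% and 6.65% of all genes. In WT 1 passed upward and 1 downward, beside 11.0% and 8.25%.

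Genes that supply 2-oxoglutarate and vitamin C, the co-substrate and a cofactor of the Tet enzymes, stayed within 2-fold in all 4 comparisons with 1 exception among the 10 of 12 that passed the filter. That gene was past 2-fold upward in KO ESCs against WT ESCs, KO EBs against KO ESCs and WT EBs against WT ESCs, where 10.6%, 9.31% and 11.0% of all genes were, so the list's count is near the background. The vitamin C transporter gene Slc23a1 had 97.0 in KO EBs, 154 in WT EBs, 4.27 in KO ESCs and 0.778, a single read, in WT ESCs. In KO EBs it was 22.7-fold higher than in KO ESCs (10.9 to 54.9), and in WT EBs the ratio to WT ESCs was 198 with an interval from 34.8 to 7908. Between KO ESCs and WT ESCs the ratio was 5.48 with an interval from 0.735 to 243.

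Of 14 germline genes known to be silenced by promoter methylation, 12 passed the filter, and Dazl and Ddx4 were at 0 with under 100 countable bases. In KO ESCs against WT ESCs 7 passed 2-fold downward and 2 upward, beside 4.42% and 10.6% of all genes, and the median log2 fold was −1.36. Slc25a31, an ADP/ATP carrier of male germ cells, stood at 68.8 in KO ESCs and 477 in WT ESCs, 6.93-fold lower (5.73 to 8.45), and Sycp1, a synaptonemal complex gene with 20.8% of windows copied, was 11.7-fold lower (9.78 to 14.0). Dpep3, a dipeptidase gene, was at 655 in KO ESCs and 111 in WT ESCs, 5.92-fold higher (4.97 to 7.10). In KO EBs against WT EBs the median was 0.03, with 2 genes past 2-fold downward, Sycp3 of the synaptonemal complex (5.13-fold, 4.06 to 6.56) and Mael of the piRNA pathway (3.11-fold, 2.48 to 3.92), and 2 upward, Dpep3 (8.46-fold, 6.84 to 10.6) and Tex101, a germ cell surface protein gene (2.36-fold, 1.55 to 3.69).

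In EBs against ESCs the germline list had medians of opposite sign in the genotypes, a difference that was not tested. In KO EBs against KO ESCs 4 passed 2-fold upward and 0 downward, beside 9.31% and 6.65% of all genes, and the median log2 fold was 0.34. In WT EBs against WT ESCs 3 passed 2-fold upward and 5 downward, beside 11.0% and 8.25% of all genes, and the median was −0.73. Mael had 155 in KO EBs and 44.8 in KO ESCs, 3.46-fold higher (2.57 to 4.68). It was also higher in WT EBs (483) than in WT ESCs (230), with a log2 fold of 1.07. Asz1, also of the piRNA pathway, had 68.6 in WT EBs and 300.4 in WT ESCs, 4.38-fold lower (3.20 to 6.13). It was also lower in KO EBs (65.7) than in KO ESCs (96.0), with a log2 fold of −0.54. Neither Mael nor Asz1 thus changed sign between the genotypes. Other genes of the list did, among them Slc25a31, with a log2 fold of 1.15 in KO and −1.68 in WT. Stk31 also changed sign, at 0.05 in KO and −1.27 in WT. The difference between the EB changes, KO minus WT, was above 0 for 11 of the 12 genes and at least 1 for 5, where 11.4% of all genes passed 1. Methylation itself was not measured.

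**Figure D4:**
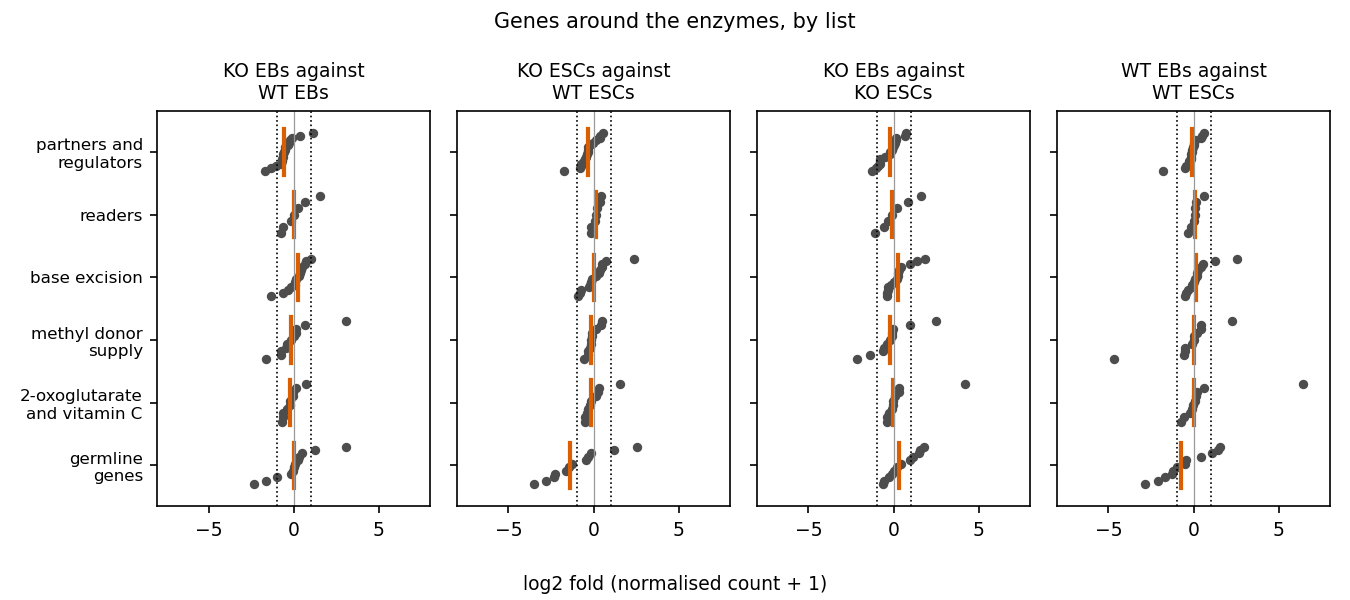
Log2 fold (x axis) of each gene past the filter in the 6 lists (rows), in the 4 comparisons (panels), with an orange bar at the list median and dotted lines at 2-fold. Germline genes have medians of −1.36 in KO ESCs against WT ESCs and −0.73 in WT EBs against WT ESCs, and the other lists have medians between −0.59 and 0.23.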

How the data were processed

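The files hold ribosome footprint values per RefSeq coding sequence entry for 4 libraries. The submitters' processing notes name the mm10 genome (the same assembly as GRCm38), HTSeq 0.6.0, TopHat2 2.0.10, DESeq, Bowtie and CASAVA 1.8.2. The sources used here state neither the annotation version nor the HTSeq settings. The deposited signal is normalised counts, and HTSeq and DESeq are among the tools named. Of the values, 100% were whole multiples (within 0.01) of each library's smallest step, which gave back the reads. This shows 1 scaling constant per library and not the method that set it. The table's reads numbered 14369037 in KO EBs, 13520720 in WT EBs, 34316894 in KO ESCs and 30677431 in WT ESCs, of which 4075850, 4234361, 11455539 and 8570204 were on genes. HTSeq's 5 summary entries were left out, and columns with no matching label numbered 0. Entries were matched to symbols in 27083 of 27442 cases and to coding positions in 27175, of which 119 through GENCODE because the RefSeq annotation lacked them, among them the second entry of Tet1.

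The enzymes and gene lists were chosen with earlier results of these data known. Log2 folds used a pseudocount of 1 and a mean of at least 25, and a gene was called at 2-fold. A list names up to 2 genes past 2-fold in each direction and comparison. The values of 1 gene that this rule would name are not reported here. Because 1 library per group allows no test, an additive model of genotype and stage was fitted on the reads with edgeR 4.0.16 and DESeq2 1.42.0 in R 4.3.3, which leaves 1 residual degree of freedom and takes departures from additivity as error. Python 3.11.15 and scipy 1.17.1 were used.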

Additional observations from a re-analysis of the deposited data

Results flagged for a closer look

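The EB change of Tet3 had opposite signs in the genotypes, with a log2 fold of −0.34 in KO EBs against KO ESCs and 0.57 in WT EBs against WT ESCs, a difference of −0.91. With 1 library per group this difference was not tested between samples. Opposite signs occurred in 42.2% of the 9670 genes compared.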

How the results depend on the processing

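Of 154 values recomputed under alternatives, 142 kept their direction and size or call, 12 moved and 0 reversed. Some of these could not change. Tet2 and Tet3 have 1 entry each and means of at least 100, so the filter and largest-entry settings left their folds unchanged. Their shares per total and per countable coding kilobase are the same. A reversal could be recorded only for folds of Tet2 and Tet3 at 2-fold or more, so the 0 does not cover the other values. Without the filter on low values Tdg entered with 1 to 5 reads, and the count of enzymes became 1 higher in KO EBs against WT EBs, 1 lower in KO ESCs against WT ESCs, 1 higher in KO EBs against KO ESCs and 1 with a difference of EB changes above the limit. With a pseudocount of 10, 0 enzymes were at least 2-fold higher in KO ESCs against WT ESCs. The additive fit for EBs against ESCs called 25 genes in all with TMM in edgeR, 43 with DESeq2's size factors, 338 over every gene with a read and 375 in DESeq2. For KO against WT it called 0, and 277 over every gene with a read and 322 in DESeq2. The causes were not tested. Without length correction the Tet2 share in KO ESCs was 94.5%. Scaled to equal totals, Tet2 had a log2 fold of −0.04 in KO ESCs against WT ESCs, against −0.16 as reported. No paired analysis was possible because each group has 1 library, and leaving out a replicate was not possible either. Depth limits Tet3 most, at 79 reads in WT EBs. The other 7 enzymes are limited by the number of bases that could be counted, between 0 and 99, and Tdg also by copies of its sequence elsewhere in the genome.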
